A study of Homo sapiens with 15 samples.

Results

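The comparison set the 12 libraries of HT115 cells in which any form of SOX9 was induced against the 3 libraries in which GFP was induced. HT115 is an established human colorectal cancer line, and expression was measured by RNA sequencing of polyadenylated RNA. The 12 libraries were 3 each of V5-tagged wild-type SOX9 (SOX9_WT) and of the V5-tagged SOX9 mutants M228, M303 and M379. Each SOX9 group counted equally, so that the pooled value is the mean of 4 group means minus the GFP mean, and the replicate number entered as a block. These 15 libraries are all the libraries of the series. The question was which genes moved the same way in every SOX9 group, whatever the construct.

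All groups, the GFP controls included, were induced for 24 h with doxycycline at 0.5 µg/ml. M303 is a shortened SOX9 by the series text, while no source used here explains the names M228 and M379. The series text and the treatment text speak of duplicates, while the labels give 3 libraries per group. Whether the 3 came from separate cultures is not stated, and the p-values reflect only how far these libraries differ, which may be technical. No source used here names the promoter of the inducible construct or says whether each line is 1 clone or a pool. All 5 groups therefore differ in the induced construct, and any difference between the lines that carry them cannot be told apart from it.

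SOX9 is a transcription factor of the SRY-related HMG-box family. It binds short DNA words around ACAAT or ACAAAG, bends the DNA, and activates transcription through a domain at its C-terminal end. In cartilage it switches on collagen and matrix genes. In the intestine it is made in the stem and progenitor cells of the crypt and in Paneth cells, and in colorectal cancer it is often made at high levels. HT115 cells already transcribe their own SOX9 gene, so that GFP marks the level of that gene and not its absence.

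Library totals ran from 3054755 reads in GFP replicate 1 to 31704249 in M303 replicate 1. A level of 3 reads, the limit that a count of 0 allows, corresponds to 0.982 CPM (reads of a gene scaled to equal library size) in the shallowest library and 0.0946 in the deepest. The GFP libraries also stood further from each other than the rest. The median gene spanned 0.72 log2 units over the 3 GFP libraries and 0.26 to 0.35 in the SOX9 groups. In GFP replicate 2 the 36 listed ribosomal protein genes took 4.64% of the reads, while the other 14 libraries gave them 2.41% to 3.21%. The GFP libraries are shared by all comparisons below. The edgeR fit takes 1 spread per gene over all 15 libraries, so its p-values and standard errors against GFP may be too small. With a separate weight for GFP, limma voom called 1 gene in the pooled contrast, SOX9. Epithelial markers were high in all libraries, with EPCAM at 848 to 1117 CPM. Of the marker lists of other cell types, 4 of 10 fibroblast, 2 of 10 immune and 0 of 6 endothelial genes were high enough to be tested. CD3E, PDGFRA and CDH5 had no read in any library, and PTPRC reached at most 0.0671 CPM. LYZ, on the immune list but also a gene of Paneth cells, stood at 636 to 3543 CPM. CD8A, at 0.673 to 1.69 CPM, and COL1A1, at 2.13 to 4.04 CPM, were read in every library, ACTA2 reached 3.22 CPM and VWF 0.973 CPM. The summed fibroblast list stood at 4.34 to 5.62 CPM in GFP and 5.16 to 8.24 CPM with SOX9, and its part in the results was not tested.

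SOX9 itself (ENSG00000125398, GRCh38 chromosome 17, 72121020 to 72126416, plus strand) separated the groups. In CPM after TMM scaling, the GFP libraries held 97.6, 101 and 158. The SOX9_WT libraries held 243, 210 and 186, the M228 libraries 1900, 2032 and 2383, the M303 libraries 2949, 3037 and 3039, and the M379 libraries 2034, 2329 and 2282. All 12 SOX9 libraries thus lay above all 3 GFP libraries, but SOX9_WT lay close to GFP and far below the mutants. The pooled log2 fold change was 3.48 ± 0.16 (SE; edgeR quasi-likelihood test, adjusted p = 1.00e-07). The group values behind it were 0.86 for SOX9_WT, 4.15 for M228, 4.67 for M303 and 4.23 for M379, and they differed among the 4 groups (edgeR adjusted p = 1.13e-06). With 1 common mean for the 12 libraries in place of 4 group means, the SOX9 difference became 4 ± 0.91 and missed the threshold (edgeR adjusted p = 0.0924). These reads sum the cell's own gene and whatever part of each construct matches the annotated gene. Whether the constructs are counted alike is not known, so the lower SOX9_WT count is not a measured dose. The construct and its level cannot be told apart.

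**Figure D1:**
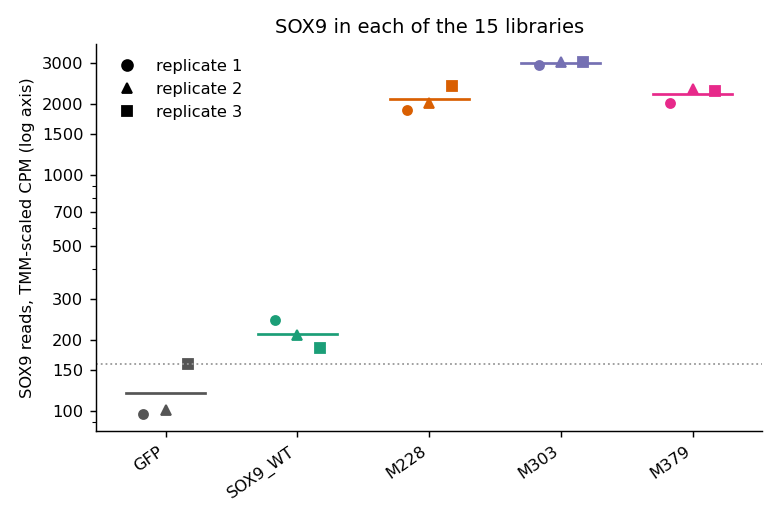
SOX9 level in each of the 15 libraries in TMM-scaled CPM (log axis), by induced construct, with marker shapes for the replicate number and horizontal bars for group means. The dotted line is the highest GFP library, at 158 CPM; the lowest SOX9 library, of SOX9_WT, lies at 186 CPM and the mutants at 1900 CPM and above.

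Of 16160 genes tested, 60 were called in the pooled contrast at an edgeR adjusted p under 0.05, which is 0.371% of those tested. They were 38 genes higher with SOX9 (0.235%) and 22 lower (0.136%). At an unadjusted p under 0.05 there were 2942. The 4 group fold changes shared 1 sign in 59 of the 60 genes, the exception being FOXQ1. In 48 of the 60 each SOX9 library lay on the same side of the GFP library of the same number, an arrangement that 6.03% of all tested genes showed. In 29 of the 60, 20 higher and 9 lower, all 12 SOX9 libraries lay beyond all 3 GFP libraries, against 1.35% of all tested genes. Since the calls and these counts use the same libraries, the counts describe the called genes and do not test them.

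Tested one at a time against the same 3 GFP libraries, SOX9_WT gave 79 calls (0.489% of genes tested), M228 181 (1.12%), M303 85 (0.526%) and M379 17 (0.105%). Of the 60 pooled genes, 16 were also called in SOX9_WT, 43 in M228, 40 in M303 and 15 in M379. Only 5 passed in each of the 4 groups: SOX9, ARSJ, ARHGEF37, PRSS23 and ENSG00000287781. A further 10 passed in 3 groups, 23 in 2, 18 in 1 and 4 in none. A stricter test takes the largest of the 4 p-values of a gene whose fold changes share a sign and adjusts it over all genes. It called 0 genes (0%), with 404 at an unadjusted p under 0.05 and a lowest edgeR adjusted p of 0.398, shared by ARHGEF37, PRSS23 and ARSJ. With DESeq2 the same criterion called 5 genes.

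Equality among the 4 SOX9 groups was rejected for 272 genes (1.68%). GFP is not in that contrast, but the GFP libraries enter its estimate of spread and its block, and without GFP replicate 2 the count was 1712. Among the 60 pooled genes 19 were in that set and 41 were not. SOX9_WT had the smallest of the 4 changes in 40 of the 60 genes, M228 in 11, M379 in 5 and M303 in 4. Over the 60 genes the median size of change was 0.66 log2 units in SOX9_WT, 0.95 in M228, 0.91 in M303 and 0.91 in M379. SOX9_WT also had the lowest SOX9 count, with the limit on that count given above, and its part in these values was not tested.

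**Figure D2:**
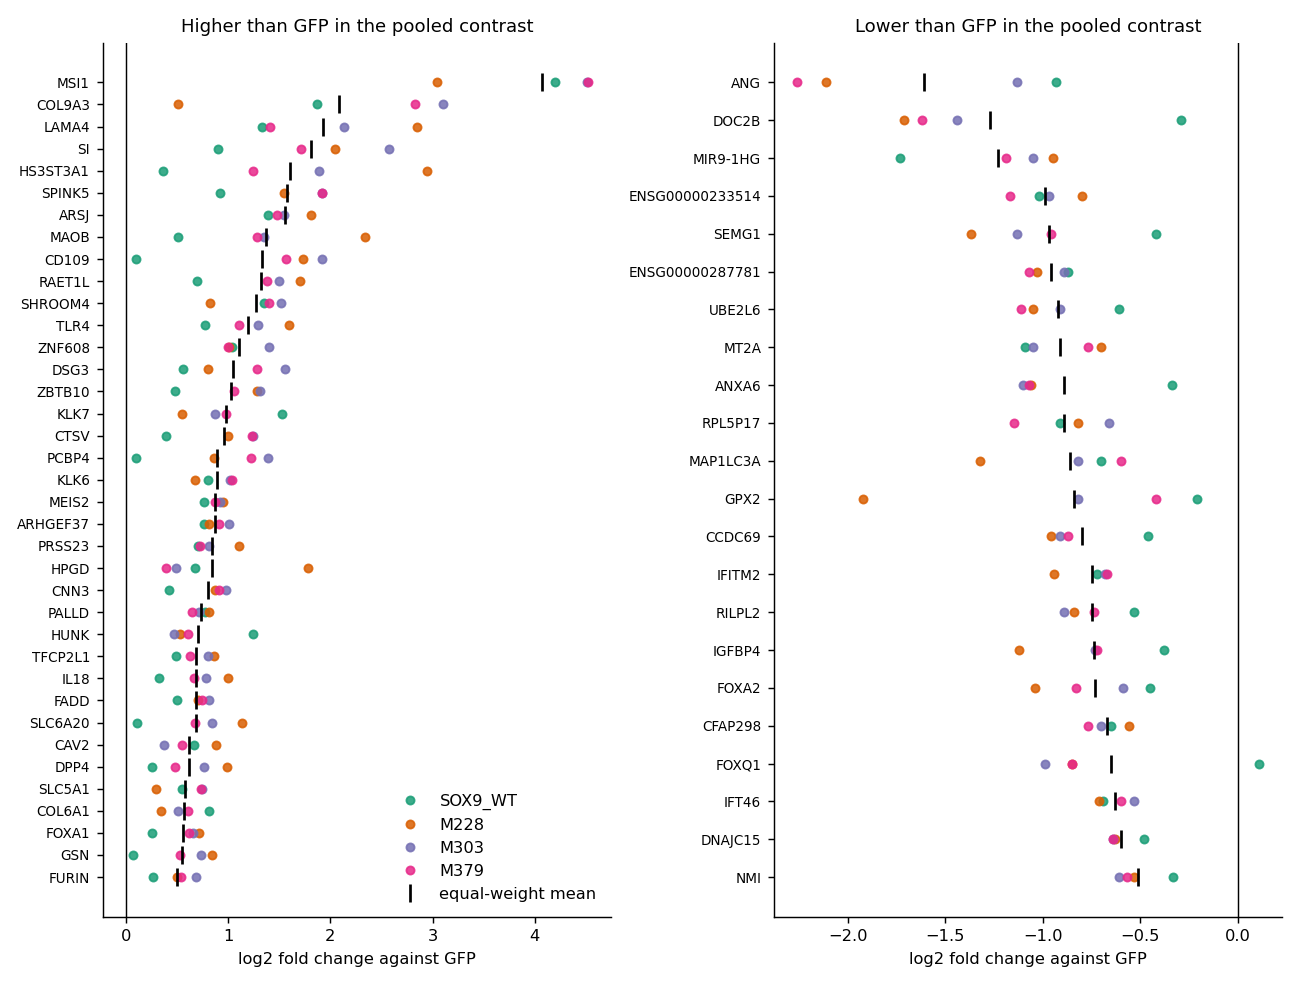
Log2 fold change against GFP of the called genes other than SOX9, 37 higher (left) and 22 lower (right), with 1 point for each SOX9 group and a black bar for their equal-weight mean. SOX9_WT points lie nearest to 0 for most genes, and the SOX9_WT point of FOXQ1 is the only one on the other side of 0.

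How far the list of 60 depends on single libraries was the main limit of the comparison. Leaving out 1 library at a time gave 26 to 933 calls. Without GFP replicate 1, the shallowest library, there were 26, without GFP replicate 2 184 and without GFP replicate 3 933. SOX9 libraries also moved the count by over 1.5 times: it was 27, 28 and 38 without M228 replicates 1, 2 and 3, 26 and 29 without M303 replicates 2 and 3, 32, 27 and 35 without M379 replicates 1, 2 and 3, and 38 without SOX9_WT replicate 2. Leaving out a whole group gave 167 calls without SOX9_WT, 1 without M228, 5 without M303 and 2 without M379. The fit without the replicate block gave 13, limma voom with a separate weight for GFP gave 1, which was SOX9, and libraries 2 and 3 alone gave 1. Beside this, 16 of the 60 genes were called with each of the 15 libraries left out in turn: SOX9, LAMA4, SI, HS3ST3A1, SPINK5, ARSJ, MAOB, SHROOM4, ARHGEF37, PRSS23, ANXA6, RILPL2, DNAJC15, MIR9-1HG, ENSG00000233514 and ENSG00000287781. None of the 60 changed sign under any alternative run. The genes described most fully are therefore given with their library values.

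**Figure D3:**
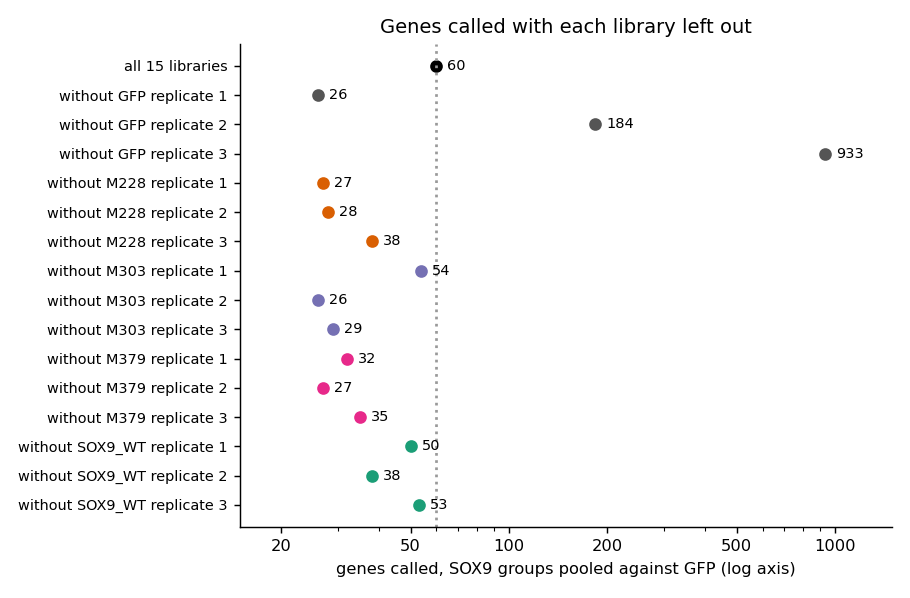
Number of genes called in the pooled contrast (log axis) with all 15 libraries and with each library left out, the dotted line marking the 60 calls of the full set. The counts span 26, without GFP replicate 1 or M303 replicate 2, to 933, without GFP replicate 3, and only without GFP replicate 2 or 3 do they exceed 60.

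Among the genes that rose, 3 passed in every SOX9 group besides SOX9. ARSJ encodes an arylsulfatase family member. Its level was 1.52, 0.852 and 2.08 CPM in GFP, 3.79, 4 and 3.63 in SOX9_WT, 5.13, 4.38 and 5.99 in M228, 3.61, 4.31 and 5.12 in M303 and 4.16, 3.51 and 4.76 in M379. All 12 SOX9 libraries lay above GFP, and the group changes of 1.39, 1.81, 1.55 and 1.48 log2 units lay close together. The pooled change was 1.56 ± 0.21 (edgeR adjusted p = 0.0102), resting on 5, 10 and 34 reads in the GFP libraries. PRSS23 encodes a secreted serine protease. Its level was 64.5, 77.2 and 71.4 CPM in GFP, 133, 117 and 99.1 in SOX9_WT, 156, 170 and 138 in M228, 108, 143 and 125 in M303 and 107, 134 and 115 in M379. The groups did not overlap GFP, and the change was 0.84 ± 0.10 (edgeR adjusted p = 0.00654). About 12.2% of PRSS23 exon bases overlap exons of FZD4 on the opposite strand, which the counting did not separate. ARHGEF37 encodes a guanine nucleotide exchange factor. Its level was 17, 14.3 and 14.4 CPM in GFP and 20.9 to 34.0 CPM in the 12 SOX9 libraries (median 27.4), again without overlap. It rose by 0.87 ± 0.11, with 0.76 to 1.01 in the 4 groups (edgeR adjusted p = 0.00654).

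Promoter windows of described genes are printed to show the DNA at their starts beside the words that SOX proteins are known to bind. Each runs from 250 bases before to 50 bases after the RefSeq start of the gene, from RefSeq on GRCh38.p14, and is written 5′ to 3′ on the gene's strand. The word ACAATG, the word ACAAAG and the word AACAAT were searched on both strands, with any match in capitals, and the first and last of them share bases. Of the 6 genes only SI has its RefSeq start at the gene start of the count table. The first 2 genes that rose and the first 2 that fell, by the naming rule and held by the table, were SPINK5 (chr5:148063730-148064029, plus strand), ARSJ (chr4:113979598-113979897, minus strand), ANXA6 (chr5:151157730-151158029, minus strand) and RILPL2 (chr12:123436635-123436934, minus strand). ARHGEF37 (chr5:149581248-149581547, plus strand) and SI (chr3:165078447-165078746, minus strand), genes with a match that were called with every library left out, were added after their values were seen.
SPINK5: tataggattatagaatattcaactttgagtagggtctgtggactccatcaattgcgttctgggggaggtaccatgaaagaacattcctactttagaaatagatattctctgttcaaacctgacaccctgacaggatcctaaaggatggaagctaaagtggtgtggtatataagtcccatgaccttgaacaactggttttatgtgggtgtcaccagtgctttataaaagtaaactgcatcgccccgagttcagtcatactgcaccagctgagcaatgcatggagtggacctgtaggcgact
ARSJ: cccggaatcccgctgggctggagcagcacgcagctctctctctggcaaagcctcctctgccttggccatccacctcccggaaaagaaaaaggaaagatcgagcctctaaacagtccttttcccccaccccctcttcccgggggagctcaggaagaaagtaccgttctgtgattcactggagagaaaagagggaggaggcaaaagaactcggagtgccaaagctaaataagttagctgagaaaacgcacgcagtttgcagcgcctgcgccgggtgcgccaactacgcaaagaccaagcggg
ARHGEF37: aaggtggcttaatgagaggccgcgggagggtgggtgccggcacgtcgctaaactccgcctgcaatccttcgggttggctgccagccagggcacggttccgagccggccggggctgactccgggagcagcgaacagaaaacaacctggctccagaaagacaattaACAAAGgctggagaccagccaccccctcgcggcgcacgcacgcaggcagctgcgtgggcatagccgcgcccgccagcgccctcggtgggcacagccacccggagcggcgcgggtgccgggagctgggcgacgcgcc
SI: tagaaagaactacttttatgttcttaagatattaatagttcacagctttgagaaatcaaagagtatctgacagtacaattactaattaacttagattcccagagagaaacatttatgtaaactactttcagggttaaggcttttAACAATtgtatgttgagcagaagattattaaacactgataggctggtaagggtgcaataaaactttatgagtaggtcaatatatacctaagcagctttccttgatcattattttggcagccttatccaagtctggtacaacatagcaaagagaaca
ANXA6: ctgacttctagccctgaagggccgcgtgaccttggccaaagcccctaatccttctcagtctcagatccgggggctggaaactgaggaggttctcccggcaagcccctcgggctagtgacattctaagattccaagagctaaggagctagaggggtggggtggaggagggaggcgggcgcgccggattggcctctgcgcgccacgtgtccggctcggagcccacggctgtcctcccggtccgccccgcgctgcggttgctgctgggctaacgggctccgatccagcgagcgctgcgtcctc
RILPL2: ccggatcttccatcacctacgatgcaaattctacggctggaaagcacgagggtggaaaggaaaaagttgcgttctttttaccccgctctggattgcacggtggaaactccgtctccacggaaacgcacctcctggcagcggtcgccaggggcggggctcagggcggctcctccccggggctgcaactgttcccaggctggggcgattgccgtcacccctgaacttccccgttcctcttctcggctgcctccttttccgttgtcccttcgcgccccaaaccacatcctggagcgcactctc
ARHGEF37 holds ACAAAG 86 bases before its start and SI holds AACAAT 106 bases before its start, while the other 4 windows hold none of these words. Of the called genes, 32 that rose and 15 that fell had a window in the table. At least 1 word stood in 9 of the 32 (28.1%) and in 3 of the 15 (20%), against 29.1% of all 35116 windows of this length. By word, ACAATG stood in 10.8%, ACAAAG in 16.1% and AACAAT in 10.1% of all windows. A match is a stretch of letters and no measured binding.

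Several called genes encode matrix proteins or enzymes that act on the matrix, grouped here by role and not as a tested theme. COL9A3, which encodes a chain of the cartilage collagen type IX and is a known SOX9 target in cartilage, held 1.52, 3.07 and 1.96 CPM in GFP. It held 12.7, 5.90 and 5.64 CPM in SOX9_WT, 3.14, 3.11 and 3.50 in M228, 15.1, 21.4 and 23.0 in M303 and 11.6, 16.2 and 21.7 in M379. The M228 libraries stood just above the highest GFP library, and the other 3 groups well above it. The pooled change was 2.08 ± 0.35 (edgeR adjusted p = 0.0239), made of 1.87, 0.51, 3.10 and 2.83 for SOX9_WT, M228, M303 and M379, which differed among groups (edgeR adjusted p = 0.00333). The call was lost without any one of 6 libraries, GFP replicate 1 among them. Of 17 genes of cartilage known as SOX9 targets, 7 were expressed enough to be tested, 3 with a positive and 4 with a negative pooled change (median -0.02). COL9A3 was the only one called, where 0.371% of all tested genes were called. COL11A2, of collagen type XI, had a pooled value of -0.63 ± 0.26 and was not called (edgeR adjusted p = 0.232).

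LAMA4, which encodes a laminin chain of basement membranes, held 2.13, 1.19 and 1.16 CPM in GFP. The SOX9_WT libraries held 5.40, 3.94 and 1.62 CPM, those of M228 12, 11.6 and 7.85, those of M303 7.94, 6.31 and 4.84, and those of M379 5.10, 3.83 and 2.73. Replicate 1 was highest in every group, and SOX9_WT replicate 3 fell below GFP replicate 1, while each SOX9 library exceeded the GFP library of its own number. The pooled change was 1.93 ± 0.22 (edgeR adjusted p = 0.00364). COL6A1, a chain of collagen type VI, held 109, 119 and 109 CPM in GFP and 128 to 221 CPM in the SOX9 libraries (median 158). It lay above GFP in all 12 and rose by 0.57 ± 0.10 (edgeR adjusted p = 0.0239), and its call held in 9 of 15 sets with 1 library left out. HS3ST3A1, a sulfotransferase that modifies heparan sulfate chains, rose by 1.61 ± 0.24 from 0.608, 0.767 and 0.673 CPM in GFP (edgeR adjusted p = 0.0147). Its SOX9_WT libraries, at 0.681, 0.882 and 0.860 CPM, overlapped GFP, and its M228 libraries, at 3.65, 6.07 and 5.14 CPM, were the highest. In the list of 25 matrix and integrin genes, of which 23 were tested, 19 had a positive pooled change (median 0.28, against 0.01 over all tested genes). COL6A1 was the only one called, where 0.371% of all tested genes were called. Without GFP replicate 2 that median was 0.08, with 13 of 23 positive.

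Proteases, a protease inhibitor and a desmosomal gene known from the epidermis are described next. SPINK5 encodes LEKTI, an inhibitor of the kallikrein proteases in skin. It held 1.52, 2.64 and 3.85 CPM in GFP, 6.08, 5.16 and 4.78 in SOX9_WT, 6.73, 9.74 and 9.44 in M228, 9.52, 10.8 and 12.8 in M303 and 8.86, 12.9 and 11.4 in M379. No SOX9 library reached down to GFP, and the change was 1.58 ± 0.20 (edgeR adjusted p = 0.00654), with the lowest group value in SOX9_WT, 0.92. KLK7, a kallikrein that cleaves desmosome proteins, held 21, 33.4 and 34.1 CPM in GFP and 33.4 to 105 CPM in the SOX9 libraries. The top values, 103 and 105 CPM, were in SOX9_WT, and the lowest SOX9 library overlapped GFP. KLK7 rose by 0.98 ± 0.16 (edgeR adjusted p = 0.0171), most in SOX9_WT at 1.53 and least in M228 at 0.55. The KLK7 call was lost without GFP replicate 1. KLK6, its neighbour on chromosome 19, rose by 0.89 ± 0.16 (edgeR adjusted p = 0.0322), with 20.5% of its exon bases shared with opposite-strand genes. The KLK6 call held in 6 of 15 sets with 1 library left out. DSG3, a desmosomal cadherin of stratified epithelia, held 26.5, 9.63 and 22.1 CPM in GFP and 25.4 to 62.1 CPM with SOX9. It rose by 1.05 ± 0.21 (edgeR adjusted p = 0.049), and its call held in 2 of 15 sets with 1 library left out, with a value of 0.67 without GFP replicate 2. GFP replicate 2 was its lowest library, and GFP replicate 1 overlapped the lowest SOX9 libraries.

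In the list of 23 kallikrein and keratinocyte genes, 13 were tested and 12 had a positive pooled change. KLK6, KLK7 and DSG3, 3 genes, were called higher and 0 lower, against 0.235% and 0.136% of all tested genes. The list median was 0.57, and 0.55, 0.67 and 0.75 with GFP replicates 1, 2 and 3 left out. In the same order 11, 12 and 10 of the 13 genes were positive. The calls were less stable: 0 of its genes were called without GFP replicate 1, with no replicate block or with libraries 2 and 3 only, and 5 without GFP replicate 2 or 3. RIPK4, a kinase of keratinocyte differentiation, lay above GFP in all 12 SOX9 libraries with 0.60 ± 0.12 but was not called (edgeR adjusted p = 0.0566), nor was KLK10 with 0.46 ± 0.10 (edgeR adjusted p = 0.0675). KRT17 was the member with a negative value, -0.49 ± 0.40. CTSV, a lysosomal cysteine protease, held 2.13, 5.11 and 5.51 CPM in GFP and 5.97 to 11.7 CPM with SOX9, without overlap. It rose by 0.96 ± 0.16 (edgeR adjusted p = 0.0239), by 0.39 in SOX9_WT and 1.00 to 1.24 in the mutants. The CTSV call held in 9 of 15 sets with 1 library left out. FURIN, the convertase that cleaves many secreted precursors, held 98.8, 94.2 and 93.6 CPM in GFP. It stood at 112 to 167 CPM in the SOX9 libraries, also without overlap, and rose by 0.50 ± 0.07 (edgeR adjusted p = 0.0121). The FURIN call was lost without GFP replicate 1.

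Of the 23 tested genes of the enterocyte list, SI and DPP4 were called, where 0.371% of all tested genes were called. SI, sucrase-isomaltase of the enterocyte surface, held 1.22, 0.596 and 0.428 CPM in GFP. It held 1.65, 1.15 and 0.955 CPM in SOX9_WT, 3.91, 1.69 and 2.43 in M228, 4.87, 3.77 and 3.23 in M303 and 3.42, 2.08 and 1.25 in M379. GFP replicate 1, with 4 reads, overlapped the lowest SOX9 libraries, but each SOX9 library exceeded the GFP library of its number. The pooled change was 1.81 ± 0.28 (edgeR adjusted p = 0.0152). SI passed the count filter only through SOX9 libraries, so this value describes the reads and is no independent test of a rise. DPP4, a peptidase of the same surface, rose by 0.62 ± 0.11 (edgeR adjusted p = 0.0256), from 112, 55.9 and 71.2 CPM in GFP to a median of 120 CPM. The SOX9 libraries, at 82.7 to 184 CPM, overlapped GFP, with changes of 0.26 in SOX9_WT and 0.48 to 0.99 in the mutants. Groups differed (edgeR adjusted p = 0.0303), and the DPP4 call held in 8 of 15 sets with 1 library left out. SLC5A1, the sodium-glucose transporter, held 43.2, 36.5 and 48.3 CPM in GFP and 49.1 to 80.5 CPM with SOX9, without overlap, and rose by 0.58 ± 0.08 (edgeR adjusted p = 0.0121). SLC6A20, an amino acid transporter, rose by 0.69 ± 0.10 (edgeR adjusted p = 0.0121), with 0.11 in SOX9_WT and 0.68 to 1.14 in the mutants. The SLC5A1 and SLC6A20 calls were lost without GFP replicate 1.

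The enterocyte list as a whole did not move together. Of its 31 genes 23 were tested, 14 with a positive and 9 with a negative pooled change (median 0.28, and 0.14 without GFP replicate 2). Within it, 10 genes differed among the 4 SOX9 groups, so that the pooled value averages unlike groups. KRT20, a keratin of differentiated colon cells, stood at 597, 621 and 703 CPM in GFP and changed by 0.76 in SOX9_WT but 0.03 in M303, with a pooled value of 0.29 ± 0.11 (edgeR adjusted p = 0.19). SLC26A3, a chloride transporter, had 0.57 in SOX9_WT and -0.43 to -1.26 in the mutants. In bulk RNA, fewer cells of a type and less RNA per cell cannot be told apart. MAOB and HPGD, which break down amines and prostaglandins, rose by 1.37 ± 0.23 and 0.84 ± 0.15 (edgeR adjusted p = 0.021 and 0.0312). Both were highest in M228, at 2.34 and 1.78, and MAOB rested on 1 read in GFP replicate 1. The GFP libraries alone would not have carried MAOB through the count filter, so its p-value is no independent test of a rise. The HPGD call held in 7 of 15 sets with 1 library left out.

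Stem cell genes gave 1 call, MSI1, an RNA-binding protein gene used as a marker of intestinal stem cells. It had 0, 0 and 1 read in the GFP libraries and 0.282 to 1.49 CPM in the 12 SOX9 libraries. Summed over libraries, 179 reads with SOX9 against 1 with GFP gave a depth-corrected ratio of 27.3, with an exact 95% counting interval of 4.83 to 1080. The interval covers counting error only. MSI1 passed the count filter only through SOX9 libraries, so the ratio describes the reads and does not test a rise. In GFP replicate 1, 3 reads equal 0.982 CPM, above the SOX9 median of 0.642 CPM, so its count of 0 says little. The call (edgeR adjusted p = 0.0312) was lost without any one of 7 libraries, GFP replicate 1 among them, and the fitted fold change depends on the prior count. The other tested members of the stem cell list did not pass the test: 16 of 18 genes were tested, 7 positive and 9 negative, with a median of -0.07. Over all tested genes 0.371% were called. LGR5, the receptor that marks crypt stem cells, held 53.8, 24.4 and 72.1 CPM in GFP, a wider span than the 35.1 to 68.1 CPM of all SOX9 libraries. Its pooled value of -0.07 ± 0.17 became -0.42, and passed the test, without GFP replicate 2, and 0.29 without GFP replicate 3. PROM1, another stem cell marker, changed by -0.18 ± 0.10, with 0.46 in SOX9_WT and -0.26 to -0.52 in the mutants. It differed among the groups (edgeR adjusted p = 0.00283). LRIG1 had 0.60 ± 0.14 (edgeR adjusted p = 0.0765) and TNFRSF19 0.86 ± 0.24 (edgeR adjusted p = 0.119), both positive in all 4 groups.

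Called genes that act on actin or at the membrane were picked from the calls after their values were seen, and form no tested group. SHROOM4, which binds actin, held 3.35, 2.56 and 3.37 CPM in GFP and 5.23 to 10.4 CPM in the SOX9 libraries, without overlap. It rose by 1.27 ± 0.19 (edgeR adjusted p = 0.0121), least in M228 at 0.82. CNN3, an actin-binding calponin, held 35.3, 31.3 and 50.6 CPM in GFP and 50.8 to 84.4 CPM with SOX9, and rose by 0.80 ± 0.12 (edgeR adjusted p = 0.0121). The lowest CNN3 library with SOX9 stood just above the highest GFP library, and the CNN3 call was lost without GFP replicate 1. PALLD, palladin of actin bundles, held 80.0, 42.4 and 68.5 CPM in GFP and 89.3 to 128 CPM with SOX9, and rose by 0.74 ± 0.13, with 0.65 to 0.81 in the 4 groups (edgeR adjusted p = 0.0252). With 1 library left out, the PALLD value ran from 0.50 to 0.90 and the call held in 7 of 15 sets. GSN, gelsolin, and CAV2, a caveolin, rose by 0.55 ± 0.10 and 0.62 ± 0.12, and the SOX9 libraries overlapped GFP for both. The GSN call held in 6 and the CAV2 call in 4 of 15 sets with 1 library left out. CD109, a membrane protein that binds TGF-beta, held 2.43, 0.852 and 4.59 CPM in GFP and 2.24 to 11.6 CPM with SOX9. CD109 rose by 1.33 ± 0.26 (edgeR adjusted p = 0.049), with 0.10 in SOX9_WT. That value was 0.87 without GFP replicate 2 and 2.34 without GFP replicate 3, and the call held in 2 of 15 sets with 1 library left out.

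A few called genes known from innate immunity were likewise picked after their values were seen. TLR4, the receptor for bacterial lipopolysaccharide, held 15.2, 8.86 and 21.1 CPM in GFP and 23.7 to 47.2 CPM in the SOX9 libraries. Every SOX9 library lay above GFP, and TLR4 rose by 1.19 ± 0.19 (edgeR adjusted p = 0.0171), by 0.77 in SOX9_WT and 1.11 to 1.6 in the mutants. The call was lost without GFP replicate 1 alone. IL18, a cytokine of epithelial cells, rose by 0.69 ± 0.11 without overlap (edgeR adjusted p = 0.0152), from 18.9, 23.1 and 23.4 CPM to a median of 36.8 CPM. The IL18 call was also lost without GFP replicate 1. FADD, an adaptor of death receptors, had 0.69 ± 0.12, but 59.2% of its exon bases lie under a gene on the other strand. The FADD call held in 8 of 15 sets with 1 library left out. On the lower side, IFITM2, an interferon-induced membrane protein gene, held 63.9, 90.9 and 51.5 CPM in GFP and 29.5 to 50.5 CPM with SOX9. IFITM2 fell by 0.75 on the log2 scale (SE 0.15, edgeR adjusted p = 0.0477), and the call held in only 2 of 15 sets with 1 library left out, with -0.36 without GFP replicate 2. UBE2L6, the enzyme that attaches ISG15, and NMI, an interferon-induced protein gene, fell by 0.92 and 0.51 log2 units (edgeR adjusted p = 0.0497 and 0.0477). The UBE2L6 call held in 4 and the NMI call in 2 of 15 sets with 1 library left out. Of 23 interferon and antigen-presentation genes in a list that holds other genes, 16 had a negative pooled change (median -0.18, and -0.09 without GFP replicate 2) and 0 were called. Of all tested genes 0.371% were called.

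Some called genes encode transcription factors. FOXA1, a pioneer factor of gut epithelium, rose by 0.56 ± 0.11 (edgeR adjusted p = 0.0411), from 32.8, 22.4 and 36.2 CPM to a median of 45.1 CPM. The lowest SOX9 library, at 33.5 CPM, overlapped GFP, and FOXA1 changed by 0.26 in SOX9_WT and 0.62 to 0.72 in the mutants. With 1 library left out in turn, the call held in 2 of 15 sets for FOXA1, 7 for FOXA2, 2 for FOXQ1, 4 for ZNF608 and 8 for TFCP2L1. FOXA2, its close relative, held 10.3, 9.28 and 7.59 CPM in GFP and 3.79 to 7.49 CPM with SOX9. All 12 SOX9 libraries lay below GFP, and FOXA2 fell by 0.73 on the log2 scale (SE 0.13, edgeR adjusted p = 0.0258), most in M228 at -1.04. MEIS2, a homeobox gene, rose by 0.87 ± 0.17 with 0.76 to 0.95 in the 4 groups (edgeR adjusted p = 0.0453). Its call held in 1 of the 15 sets with a library left out, although the fold change stayed between 0.82 and 0.91. TFCP2L1 rose by 0.69 ± 0.12 and ZNF608 by 1.11 ± 0.21 (edgeR adjusted p = 0.0258 and 0.0413). FOXQ1, another forkhead gene, fell by 0.65 in the pooled contrast (edgeR adjusted p = 0.0416), with values of -0.85, -0.99 and -0.85 in M228, M303 and M379 but 0.11 in SOX9_WT. CDX2, the master factor of intestinal identity, stood at 227 to 393 CPM in GFP and 242 to 441 CPM with SOX9, with a pooled value of -0.13 ± 0.12 (edgeR adjusted p = 0.558). Of 17 intestinal transcription factors 16 were tested, 9 positive and 7 negative (median 0.11, and 0.00 without GFP replicate 2). FOXA1 and FOXA2 were the 2 called, where 0.371% of all tested genes were called. Other SOX genes gave no call: 7 of 16 were tested, 6 with a positive value (median 0.36, and 0.22 without GFP replicate 2), the highest being SOX30 at 0.85 ± 0.26 (edgeR adjusted p = 0.142). With 0.371% of all tested genes called, no call among 7 is near that share.

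**Figure D4:**
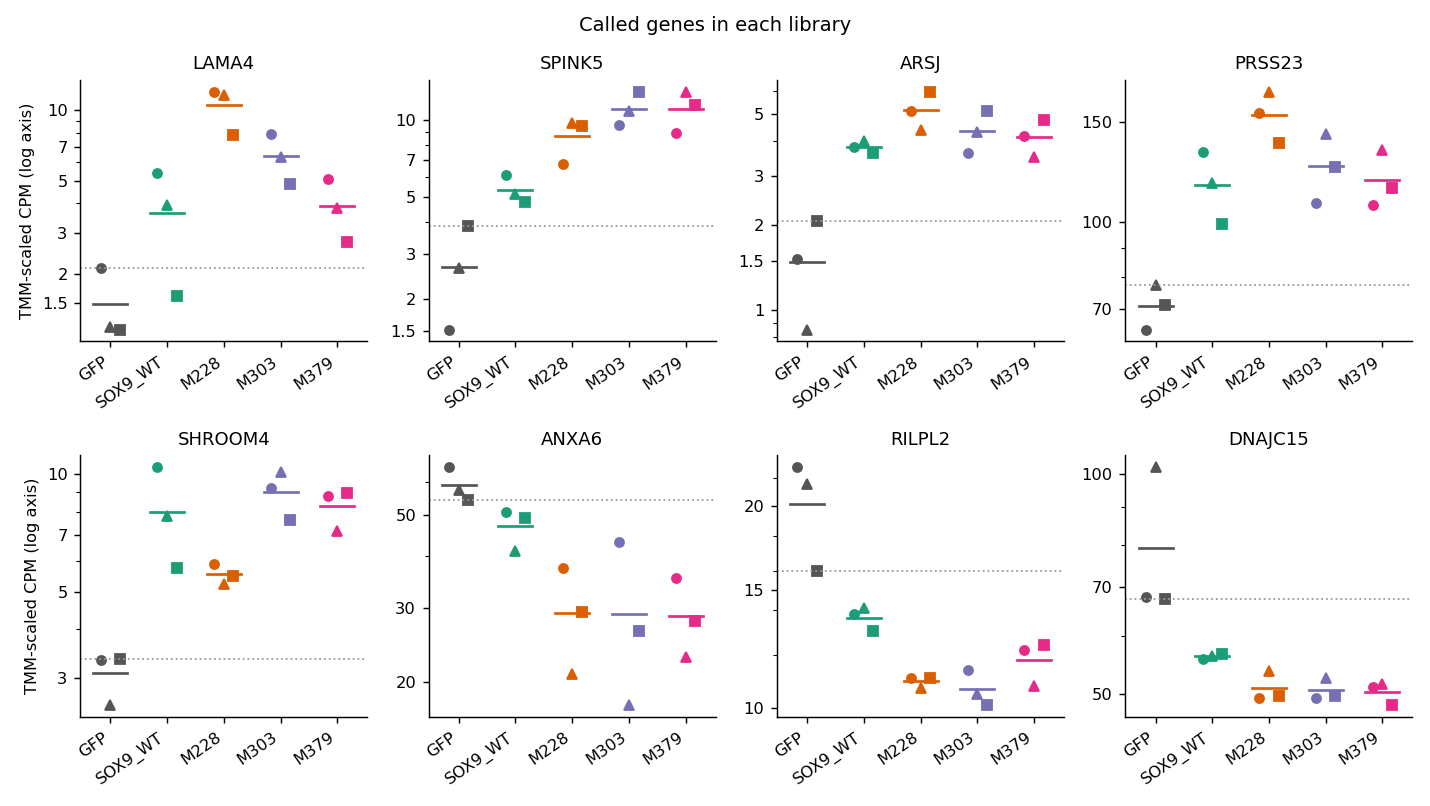
Level of 8 called genes in each library in TMM-scaled CPM (log axes that do not start at 0), with circles, triangles and squares for replicates 1, 2 and 3, bars for group means and a dotted line at the GFP library nearest to the SOX9 groups. The SOX9 libraries lie beyond that line in all 8 genes except LAMA4, where SOX9_WT replicate 3 falls below it.

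Among the genes that fell, ANXA6, which encodes a calcium-dependent membrane-binding annexin, held 65.1, 57.4 and 54.3 CPM in GFP. It held 51.0, 41.0 and 49.4 CPM in SOX9_WT, 37.5, 20.9 and 29.4 in M228, 43.1, 17.6 and 26.5 in M303 and 35.4, 22.9 and 28.0 in M379. SOX9_WT stood between GFP and the mutants, and no SOX9 library reached GFP. ANXA6 fell by 0.89 on the log2 scale (SE 0.13, edgeR adjusted p = 0.0121). RILPL2, a regulator of the primary cilium, held 22.8, 21.5 and 16.0 CPM in GFP and 10.1 to 14.1 CPM with SOX9. The groups did not overlap, and RILPL2 fell by 0.75 (SE 0.10, edgeR adjusted p = 0.0102). DNAJC15, a mitochondrial co-chaperone, held 67.8, 102 and 67.5 CPM in GFP and 48.3 to 56.7 CPM with SOX9. It fell by 0.60 on the log2 scale (SE 0.09, edgeR adjusted p = 0.0168), by 0.48 in SOX9_WT and by 0.63 to 0.64 in the mutants. Without GFP replicate 2, the high one, DNAJC15 changed by -0.40 and was still called.

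IFT46, a subunit of the transport machinery of cilia, and CFAP298, a cilia assembly factor, fell by 0.63 and 0.67 log2 units (edgeR adjusted p = 0.0401 and 0.0354). The IFT46 call held in 1 and the CFAP298 call in 2 of 15 sets with 1 library left out, with CFAP298 at -0.39 without GFP replicate 2. CFAP298 shares 25% of its exon bases with another gene on its strand. MT2A, a metallothionein that binds zinc and copper, held 8.21, 17.5 and 12.6 CPM in GFP and 3.49 to 9.03 CPM with SOX9. It fell by 0.91 on the log2 scale (SE 0.15, edgeR adjusted p = 0.0223), by 1.09 in SOX9_WT. The MT2A call held in 11 of 15 sets with 1 library left out. GPX2, the glutathione peroxidase of the gut, held 181 to 483 CPM in GFP. Its M228 libraries, at 61.1, 79.4 and 84.1 CPM, lay below all others, while SOX9_WT at 202, 277 and 260 CPM overlapped GFP. The pooled change of GPX2 was -0.84 ± 0.14 (edgeR adjusted p = 0.0251), with -1.92 in M228 and -0.21 in SOX9_WT. It was -0.45 without GFP replicate 2, the highest GPX2 library, and the call held in 9 of 15 sets with 1 library left out. MIR9-1HG, a host transcript of a microRNA gene, fell by 1.23 on the log2 scale (SE 0.19, edgeR adjusted p = 0.0147), from 1.82, 2.13 and 2.33 CPM to a median of 0.967 CPM, and most in SOX9_WT at -1.73. ANG, angiogenin, and DOC2B, a vesicle fusion factor gene, fell by 1.61 and 1.27 on the log2 scale (edgeR adjusted p = 0.0477 for both) at levels under 3 CPM in every library. Each of these calls held in 2 of 15 sets with 1 library left out. RPL5P17 is a pseudogene of a ribosomal protein gene, so its value, -0.89 ± 0.17, is uncertain, and it was -0.59 without GFP replicate 2. The RPL5P17 call held in 2 of 15 sets with 1 library left out.

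Broad gene groups gave few calls, but only 0.371% of all tested genes were called, so 0 calls in a short list says little. Several list medians moved toward 0 without GFP replicate 2, the library with the high ribosomal share. The part of that library's composition in them was not tested. All 36 tested ribosomal protein genes had a negative pooled change (median -0.30), as had 20 of 22 nuclear genes of oxidative phosphorylation (median -0.25), with 0 called in either. Without GFP replicate 2 the medians were 0.02 and 0.01. The goblet cell list, of the mucus-making cells, had 9 of 10 tested genes negative (median -0.52) and 0 called, and its median was -0.12 without GFP replicate 2. MUC2, the main gel-forming mucin, had -0.59 ± 0.26 and TFF3 -0.68 ± 0.26, neither called. Of 20 genes read as output of MAPK signalling, 19 were tested and 16 were positive (median 0.23, and 0.18 to 0.31 with a GFP library left out), with 0 called. EGR1 came nearest with 0.45 ± 0.09 (edgeR adjusted p = 0.0598). The cholesterol and fatty acid list had 18 of 21 genes positive (median 0.17, and 0.05 without GFP replicate 2) and 0 called. The WNT target list, 20 genes tested, had a median of -0.03 and 0 called, and 26 replication and mitosis genes had a median of -0.04 and 0 called. MKI67, a marker of cycling cells, held 734, 325 and 666 CPM in GFP and 498 to 699 CPM with SOX9, a pooled value of 0.13 ± 0.17 (edgeR adjusted p = 0.682).

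**Figure D5:**
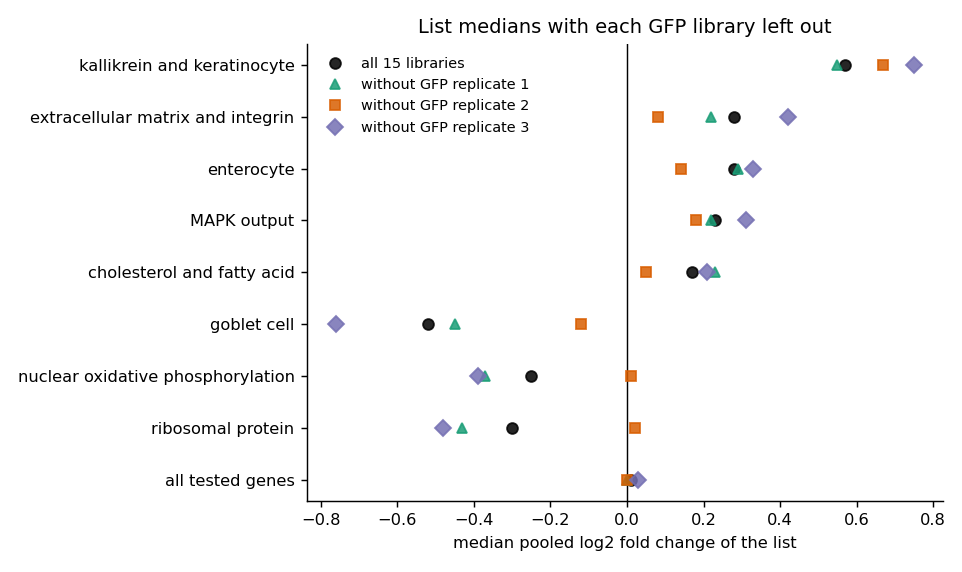
Median pooled log2 fold change of 8 gene lists and of all tested genes, with all 15 libraries and with each GFP library left out. The medians of the ribosomal protein and oxidative phosphorylation lists reach 0.02 and 0.01 without GFP replicate 2, while the kallikrein and keratinocyte list stays between 0.55 and 0.75.

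A pooled mean near 0 can hide opposite changes. Of the 16160 genes tested, 2 with a symbol were called higher in 1 SOX9 group and lower in another. Genes without a symbol were not counted here. LYZ, the lysozyme gene of Paneth cells, held 2429, 1404 and 1615 CPM in GFP, 3543, 2866 and 2567 in SOX9_WT and 1013, 836 and 636 in M228. It rose by 0.74 in SOX9_WT (edgeR adjusted p = 0.0326) and fell by 1.12 in M228 and by 0.74 in M303 (edgeR adjusted p = 7.16e-04 and 0.0176), so that its pooled value was -0.43 ± 0.10 and not called (edgeR adjusted p = 0.0765). About 34.7% of LYZ exon bases overlap an opposite-strand gene. TPPP, a tubulin-binding protein gene, rose by 0.75 in SOX9_WT (edgeR adjusted p = 0.0289) and fell by 0.63 in M228 (edgeR adjusted p = 0.0298). Its pooled value was -0.05 ± 0.10. Both contrasts of each gene share the GFP libraries. The difference among the SOX9 groups, a contrast without GFP, was called for LYZ (edgeR adjusted p = 1.42e-05) and TPPP (edgeR adjusted p = 2.79e-04). Both genes were picked for opposite calls in the same fit, which largely sets that difference in advance, so it is no separate support.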

How the data were processed

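The values are gene counts of 15 RNA sequencing libraries, 5 groups of 3, grouped by their titles. STAR 2.7.0a and the build hg38 are named in the submitters' processing notes. Counting was done by the authors with featureCounts 2.0.1 and Ensembl release 101 gene models, and the deposited values are raw counts. The command kept in the file header sets no strand option. No source used here describes trimming. A deposited table of normalized values was not used. Of 60671 genes, 42020 had an Ensembl identifier that matched a symbol.

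Genes were filtered with filterByExpr (16160 left), scaled by TMM and fitted in R 4.3.3 by the quasi-likelihood method of edgeR 4.0.16, with 1 mean per group and the replicate number as a block, which leaves 8 residual degrees of freedom. The pooled contrast is the mean of the 4 SOX9 group coefficients minus GFP. Tests were two-sided, with Benjamini-Hochberg adjustment over all tested genes within each contrast and calls at an adjusted p under 0.05. CPM values are TMM-scaled, and log2 fold changes are given with their standard error. The steps were run on simulated counts with equal spread in all groups, no replicate effect and the same effect in every SOX9 group. That setting differs from these data, so the run checks the steps and not the calls. limma 3.58.1 and DESeq2 1.42.0 served as alternatives, beside other settings given in the closing section.

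The labels tie no replicate number to a day or batch. The replicate number was used as a block because the plan of the comparison asked for it. Deviations from group means of equal numbers correlated at 0.44, 0.31 and 0.31 between GFP and the mean of the SOX9 groups. For SOX9_WT alone the values were 0.14, -0.03 and 0.12, which shows little pairing with GFP. No pair of libraries of a group agreed within sampling noise.

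Named genes are SOX9, then called genes that have a symbol, average at least 1 in log2 CPM, and show 1 sign in all groups with all 12 SOX9 libraries beyond GFP (at most 12 per direction; 12 higher and 6 lower met it), then called members of 33 gene lists, genes unequal among groups, and PROM1, KRT20, LGR5, MKI67 and CDX2. Other called genes, and uncalled members of the lists, were named after their values were seen. The comparison, the gene lists and the tests were chosen with earlier results of these data known. Lists are described by counts and medians, with no test.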

Additional observations from a re-analysis of the deposited data

Results flagged for a closer look

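The 4 SOX9 groups did not behave as 1 group for 272 genes, by an edgeR test of equal means whose contrast does not include GFP. The pooled mean of these genes therefore stands for no single group. Among the genes called in the pooled contrast, the range between the highest and lowest of the 4 group log2 fold changes was 3.81 for SOX9, 2.59 for COL9A3, 2.57 for HS3ST3A1, 1.83 for MAOB, 1.82 for CD109, 1.71 for GPX2, 1.67 for SI and 1.52 for LAMA4. It was 1.38 for HPGD, 1.30 for PCBP4, 1.10 for FOXQ1, 1.03 for SLC6A20, 1.00 for SPINK5 and 0.99 for KLK7. The smallest ranges in this set were 0.77 for HUNK, 0.77 for GSN, 0.76 for ANXA6, 0.72 for DPP4 and 0.68 for IL18. LYZ and TPPP, called in opposite directions in different groups, had ranges of 1.86 and 1.38.

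HUNK, a protein kinase gene, and KLK7 were highest in SOX9_WT, at 1.24 and 1.53. PCBP4, an RNA-binding protein gene, held 0.10 in SOX9_WT and 0.86 to 1.39 in the mutants. With 1 library left out, the HUNK call held in 6 and the PCBP4 call in 14 of 15 sets. Whether the differences among the groups come from the constructs, from their level or from the lines was not tested.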

How the results depend on the processing

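None of the 60 called genes changed sign under any alternative, but the number of calls depended on the libraries and the settings, and among single libraries leaving out GFP replicate 2 or 3 raised the pooled calls and leaving out any other lowered them. The pooled calls ran from 26 to 933 with 1 library left out, and were 13 with no replicate block, 554 with DESeq2, 1 with limma voom weights, 992 with no filter on low counts and 1 with libraries 2 and 3 only. They were 167, 1, 5 and 2 with SOX9_WT, M228, M303 or M379 left out and 8 with 1 common SOX9 mean. DESeq2 size factors gave 65 and robust edgeR 64. Of the other 59 genes, 12 stayed called with no replicate block, 57 with DESeq2 and 56 with SOX9_WT left out.

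Calls in every SOX9 group were 0 to 1 with 1 library left out (1 without GFP replicate 2), 5 with DESeq2, 19 with no filter and 2 with SOX9_WT left out. Genes unequal among the SOX9 groups were 128 to 1712 with 1 library left out (1712 without GFP replicate 2), 78 with no replicate block, 569 with DESeq2, 1188 with voom weights, 762 with no filter and 21 with libraries 2 and 3 only. In the same order of settings (no replicate block, DESeq2, voom weights, no filter, libraries 2 and 3), the calls against GFP were 5, 300, 0, 943 and 1 in SOX9_WT (8 to 737 with 1 library left out), 39, 426, 13, 710 and 16 in M228 (46 to 573), 19, 306, 2, 546 and 3 in M303 (15 to 383), and 6, 179, 1, 276 and 2 in M379 (1 to 502).

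The pooled change of SOX9 stayed between 3.08 and 4.36 and was called in all settings but 1 common SOX9 mean (4, edgeR adjusted p = 0.0924). Uncalled genes changed sign: MKI67 to -0.15 without GFP replicate 2 (-0.15 to 0.33 with 1 library left out), CDX2 to 0.13 without GFP replicate 2 (-0.30 to 0.13), LGR5 to 0.29 without GFP replicate 3 (-0.42 to 0.29) and to 0.02 with M303 left out, and TPPP to 0.15 with M228 left out and to 0.04 with 1 common SOX9 mean. The voom weights were 0.25 for GFP and 1.41 for the SOX9 libraries. LGR5 passed the threshold, at -0.42, without GFP replicate 2. The causes of these shifts were not tested.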
